A study of Brassica rapa subsp. pekinensis with 6 samples.

Results

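Homeobox and bZIP proteins are families of transcription factors that bind DNA through a homeodomain or through a basic region followed by a leucine zipper. In Arabidopsis, homeobox proteins hold the shoot meristem (KNOX, BELL and WUSCHEL-related members), set the upper side of leaves and the vascular tissue (HD-ZIP III), mark the epidermis (HD-ZIP IV) and act in responses to water deficit and shade (HD-ZIP I and II). bZIP proteins act in stress, energy and seed programs. TGA factors are the bZIP partners of NPR proteins in salicylic acid signalling, and G-box-binding factors (GBFs) bind light-responsive promoters. A homeodomain joined to a leucine zipper lets HD-ZIP proteins bind DNA as dimers, as bZIP proteins also do.

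The members were the annotated mRNAs whose descriptions named a homeobox, homeobox-leucine zipper, WUSCHEL-related homeobox, bZIP, basic leucine zipper, TGA or G-box-binding protein, apart from ABSCISIC ACID-INSENSITIVE and HY5 entries. The rule used these words and no measured value, but it was set with earlier results of these data known. It gave 193 of 33354 mRNAs, of which 119 belonged to the homeobox families and 74 to the bZIP families. One of the 74, the basic leucine zipper and W2 domain-containing protein 1-A (BraA02g016560.3C), shares the words and is not named as a bZIP transcription factor.

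RNA was measured in germinated seeds of the double haploid Chinese cabbage line 'FT' (Brassica rapa subsp. pekinensis). For the 3 Ver libraries, germinated seeds had spent 25 days at 4 °C without light. For the 3 Nor libraries, they had grown for about 48 h at 25 °C, also without light and with no cold treatment. A dish of 20 seeds counted as 1 biological repetition, so that whole germinated seeds of 1 inbred line were pooled. Seeds were split into Ver and Nor after germination, and whether the 6 libraries trace to separate dishes is not given in the sources used here. Ver and Nor seeds were sampled at the same length and therefore differed in age as well as temperature, and the effects of cold and of time cannot be told apart.

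The estimated counts totalled between 83976912 and 104903263 per library. Summed FPKM of 34 seed reserve mRNAs was between 1470 and 1500 in Ver libraries, against 89.2 to 96.5 in Nor libraries, with 20 of 29 tested mRNAs higher and 2 lower in Ver. Summed FPKM of 29 photosynthetic mRNAs was between 15100 and 15400 in Ver libraries, against 8050 to 8470 in Nor libraries (12 higher and 2 lower of 28 tested). None of these markers was at 0 in all libraries. The 2 mRNAs of the cold-regulated protein COR15 summed to between 195 and 239 FPKM in Ver libraries, against 0.0932 to 0.481 FPKM in Nor libraries. The 5 FLC mRNAs, which encode the flowering repressor that falls in vernalization, summed to between 1.66 and 2.44 FPKM in Ver libraries, against 33.0 to 37.7 FPKM in Nor libraries. The part of these differences in the results on homeobox and bZIP members was not tested. In whole germinated seeds, fewer cells of a type and less RNA per cell cannot be told apart.

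Levels are given as FPKM (fragments scaled for transcript length and library depth, comparable between genes) or as normalized counts (estimated counts scaled to 1 library size, comparable between libraries only). A member was tested when its counts passed the edgeR filter, and it was called a DEmRNA at an absolute log2 fold change (Ver over Nor) above 1 with an adjusted p of at most 0.05. Of the 193 members, 153 were tested. The other 40 had at most 94 counts in any library, 34 of them had at most 20 counts in each library, and none was at 0 in all 6. The edgeR quasi-likelihood test called 23 of the 153 members, which is 15%, against 14.4% of all 26531 tested mRNAs. Among them, 14 were upregulated (9.15%, against 6.75% of all mRNAs) and 9 were downregulated (5.88%, against 7.7%). The median log2 fold change was 0.04 over the tested members and -0.01 over all tested mRNAs. The share of called members was therefore close to the background share, and the results below concern which members moved.

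At an adjusted p of at most 0.05 and any fold change, 25 members were higher and 22 lower in Ver (30.7%, against 32.4% of all mRNAs, of which 15.3% were higher and 17.1% lower). At an unadjusted p of at most 0.05 with the fold threshold, 23 members were higher and 11 lower (22.2%, against 17.8% of all mRNAs, of which 8.42% were higher and 9.39% lower). The Ver and Nor libraries did not overlap in 85 of the 153 members (55.6%, against 52.7% of all mRNAs). DESeq2 called 36 of the 153 members (23.5%, against 18.9% of all mRNAs with a DESeq2 adjusted p, of which 8.99% were higher and 9.88% lower). By family, edgeR called 14 of 91 tested homeobox members (9 higher and 5 lower) and 9 of 62 tested members of the bZIP families (5 higher and 4 lower). No library of Ver overlapped with a library of Nor in any of the 23 called members. Of the 23, 13 stayed called whichever single library was left out, and 10 lost the call in at least 1 of the 6 such fits.

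**Figure D1:**
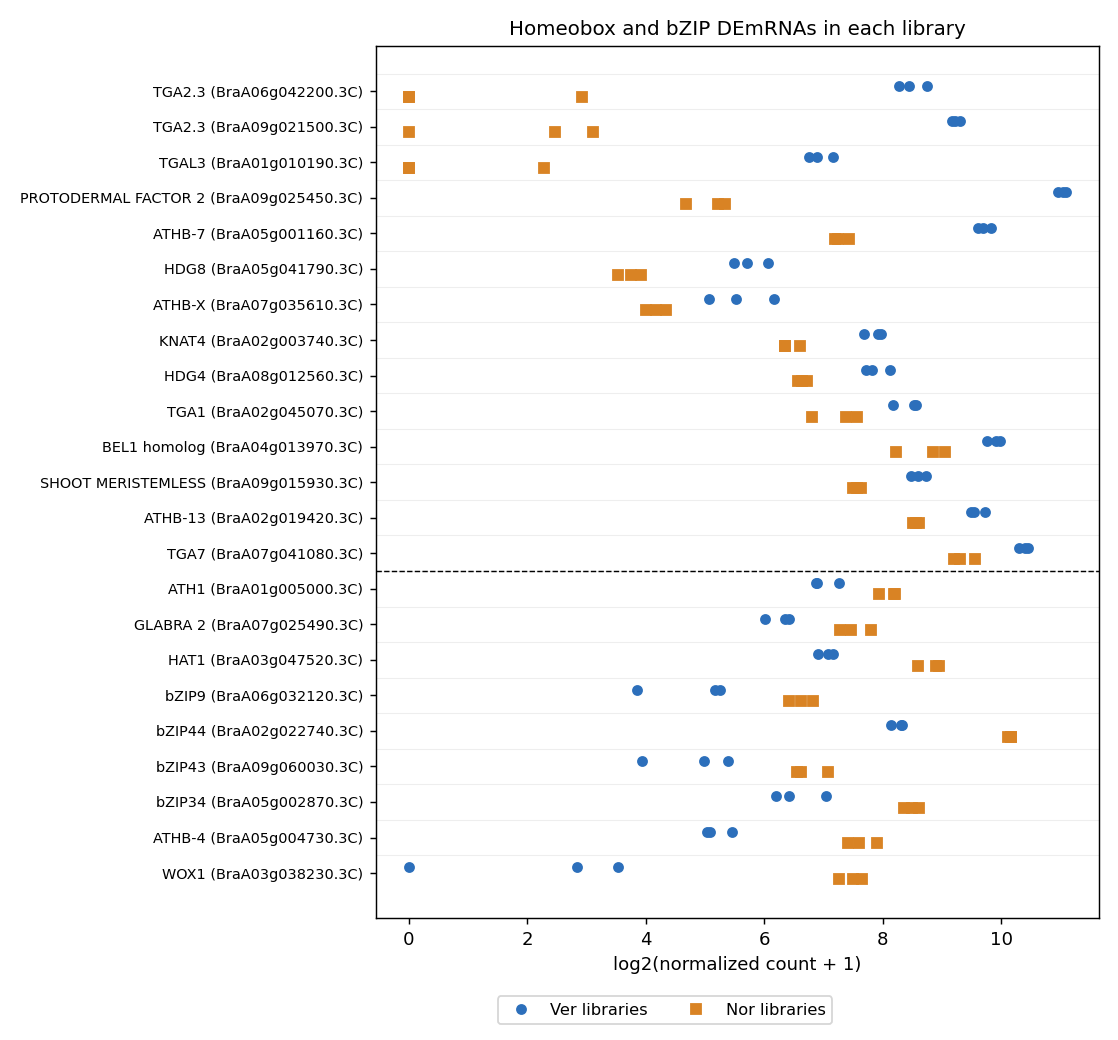
Normalized counts of the 23 called members in each library, on a log2(count + 1) axis. Blue circles are the 3 Ver libraries and orange squares the 3 Nor libraries. The 14 upregulated members stand above the dashed line and the 9 downregulated ones below it, and in every row the groups are apart.

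HD-ZIP I was the largest homeobox group, with 34 members and 27 tested. Only ATHB-7 and ATHB-13 were called, both upregulated, and the median log2 fold change was 0.23. ATHB-7 (BraA05g001160.3C, chromosome A05, 729645 to 730646 in B. rapa v3.0) is a factor that is induced by abscisic acid and water deficit in Arabidopsis. Its normalized counts were 778, 909 and 830 in Ver 1, Ver 2 and Ver 3, against 145, 150 and 171 in Nor 1, Nor 2 and Nor 3. The lowest Ver library was thus far above the highest Nor library, with means of 839 ± 65.9 in Ver and 155 ± 13.9 in Nor (SD, n = 3 each). Ver was 5.4-fold above Nor, a log2 fold change of 2.43 (SE 0.13, edgeR adjusted p = 0.000187). The other copy of ATHB-7 (BraA04g032230.3C) was low, at 16 to 40 counts in Ver libraries and 6 to 20 in Nor libraries. Its fold change of 1.30 did not pass the test (edgeR adjusted p = 0.16).

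ATHB-13 (BraA02g019420.3C), which shapes cotyledon and leaf growth in Arabidopsis, had normalized counts of 845, 721 and 740 in Ver libraries, against 377, 390 and 364 in Nor libraries. The groups were well apart, and the log2 fold change was 1.03 (SE 0.11, edgeR adjusted p = 0.00188). Without Ver 1 it was 0.95, just under the threshold for the fold change, with an adjusted p of 0.0082. The second tested copy (BraA07g034650.3C) had a log2 fold change of 0.89 (edgeR adjusted p = 0.012). The annotated transcript of that copy held 39.5% of the counts of its gene. The gene sum was 1954 ± 188 in Ver and 902 ± 44.7 in Nor (SD, n = 3 each), which is a log2 fold change of 1.13 that was called.

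The most abundant members of all were ATHB-16 in HD-ZIP I and bZIP2 among the bZIP mRNAs. ATHB-16 (BraA01g000990.3C), a growth regulator that responds to light in Arabidopsis, had 88.2, 83.2 and 87.2 FPKM in Ver libraries, against 124.9, 120.1 and 120.1 FPKM in Nor libraries. It was lower in every Ver library, but with a log2 fold change of -0.50 (SE 0.04, edgeR adjusted p = 0.000508) it stayed inside the fold threshold. Next in level within HD-ZIP I stood HAT5 (BraA05g040600.3C) with means of 67.3 FPKM in Ver and 60.0 FPKM in Nor, and ATHB-6 (BraA09g054870.3C), a negative regulator of abscisic acid responses in Arabidopsis, with 53.8 FPKM in Ver and 39.5 FPKM in Nor. Their log2 fold changes were 0.16 and 0.44, both with an edgeR adjusted p of at most 0.031. Both were therefore higher in Ver by less than the fold threshold.

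At low counts, 3 further HD-ZIP I members stood apart between the groups without passing the transcript test. ATHB-21 (BraA09g011460.3C) had 116, 70 and 82 counts in Ver libraries, against 11, 10 and 0 in Nor libraries (edgeR adjusted p = 0.074). ATHB-53 (BraA07g017250.3C) had 41, 34 and 42 counts in Ver libraries, against 8, 0 and 0 in Nor libraries (edgeR adjusted p = 0.098). ATHB-12 (BraA09g051390.3C), the nearest relative of ATHB-7, had 22, 6 and 24 counts in Ver libraries, against 83, 34 and 90 in Nor libraries (edgeR adjusted p = 0.075). These genes have a single transcript, and all 3 were called in the fit on gene sums from the same counts, ATHB-21 and ATHB-53 as higher and ATHB-12 as lower. They were named after their values were seen.

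HD-ZIP II members act in shade avoidance and auxin responses in Arabidopsis. Of 15 members, 13 were tested, none was upregulated, 2 were downregulated by both edgeR and DESeq2, and the median log2 fold change was -0.25. ATHB-4 (BraA05g004730.3C) had normalized counts of 32.9, 43.1 and 31.7 in Ver libraries, against 193, 169 and 238 in Nor libraries. It was 5.58-fold lower in Ver than in Nor, the largest fall among called members whose Ver counts averaged 10 or more (log2 fold change -2.48, SE 0.25, edgeR adjusted p = 0.00179). The other copy of ATHB-4 was not tested.

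HAT1 (BraA03g047520.3C) had normalized counts of 119, 133 and 142 in Ver libraries, against 385, 474 and 493 in Nor libraries. The log2 fold change was -1.78 (SE 0.17, edgeR adjusted p = 0.00132), and the groups were clearly apart. The second HAT1 copy (BraA01g019200.3C) had 189, 201 and 0 counts in Ver libraries, against 607, 462 and 493 in Nor libraries, and its transcript was not called (edgeR adjusted p = 0.42). The 0 in Ver 3 came with counts on another transcript of the gene, because the gene sums were 266, 262 and 260 in Ver libraries, against 740, 693 and 698 in Nor libraries. On gene sums, both HAT1 copies were called lower, with log2 fold changes of -1.61 and -1.42. HAT3 (BraA09g050200.3C) had 3.93 FPKM in Ver and 6.77 FPKM in Nor on average, a log2 fold change of -0.79 (edgeR adjusted p = 0.0060). The most abundant HD-ZIP II member, HAT22 (BraA03g061060.3C), had 30.7, 31.1 and 29.7 FPKM in Ver libraries, against 25.8, 26.0 and 27.9 FPKM in Nor libraries, a log2 fold change of 0.20 (edgeR adjusted p = 0.032).

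HD-ZIP III genes specify the adaxial leaf side, vascular tissue and the shoot apical meristem in Arabidopsis. None of the 9 tested members of 10 was called, and the median log2 fold change was -0.0035. DESeq2 called 1 of them, and 4 had an unadjusted p under 0.05 in edgeR. ATHB-9 (BraA09g034560.3C), known as PHAVOLUTA in Arabidopsis, had the highest level, at 8.78, 9.59 and 9.43 FPKM in Ver libraries and 6.45, 6.88 and 6.66 FPKM in Nor libraries. It was higher in every Ver library by a log2 fold change of 0.47 (SE 0.05, edgeR adjusted p = 0.00229). A REVOLUTA copy (BraA10g018460.3C) had 4.36 FPKM in Ver and 5.74 FPKM in Nor on average, a log2 fold change of -0.40 (edgeR adjusted p = 0.043). Their inhibitors of the LITTLE ZIPPER group, short proteins that bind HD-ZIP III proteins in Arabidopsis, counted 8 mRNAs, of which 5 were tested and none was called. At an unadjusted p under 0.05, 1 of these 5 was lower, and DESeq2 called it.

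**Figure D2:**
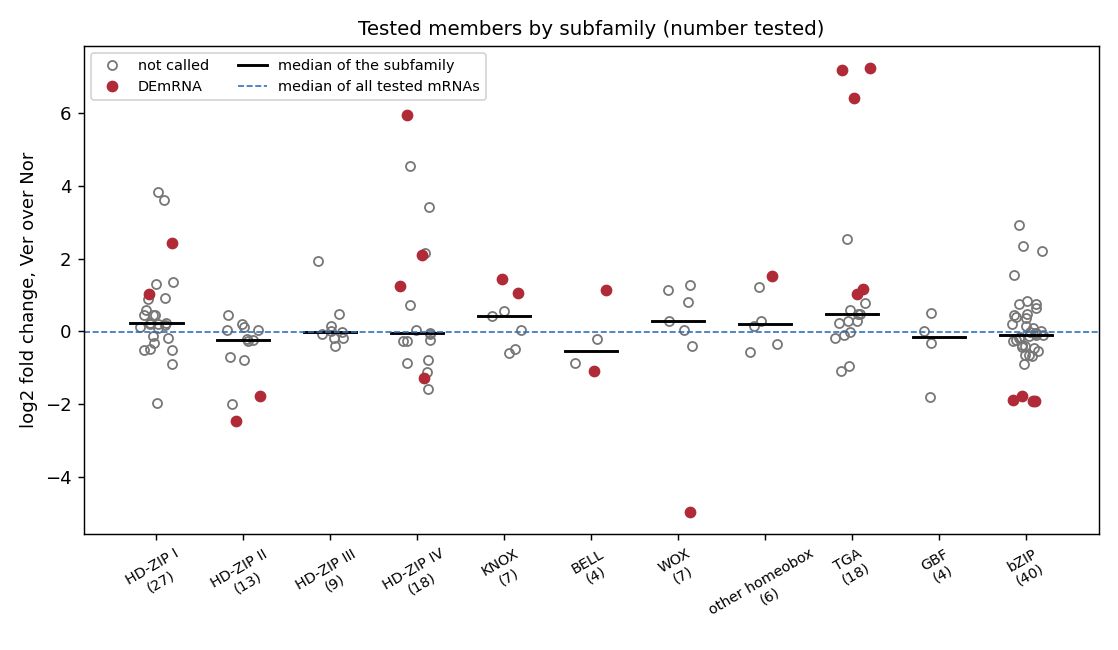
Log2 fold change (Ver over Nor) of the 153 tested members by subfamily, with the number tested in brackets. Filled red points are called, open points are not, black bars are subfamily medians and the dashed line is the median of all tested mRNAs at -0.01. TGA has 5 called members, all above the line, and the 4 called members of the bZIP column are all below it.

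HD-ZIP IV genes act in the epidermis. Of 24 members, 18 were tested, 3 were upregulated and 1 was downregulated. HDG8 (BraA05g041790.3C) had normalized counts of 44.1, 51.1 and 66.2 in Ver libraries, against 10.6, 12.4 and 14.2 in Nor libraries, a log2 fold change of 2.11 (SE 0.30, edgeR adjusted p = 0.00579). HDG4 (BraA08g012560.3C) had 224, 209 and 279 in Ver libraries, against 98.8, 93.7 and 104.9 in Nor libraries, a log2 fold change of 1.26 (SE 0.19, edgeR adjusted p = 0.00650). Both were at or below 1 FPKM in every library. GLABRA 2 (BraA07g025490.3C), which controls trichomes and root hair patterning in Arabidopsis, had normalized counts of 63.6, 84.2 and 80.6 in Ver libraries, against 176, 155 and 222 in Nor libraries. It was downregulated with a log2 fold change of -1.27 (SE 0.24, edgeR adjusted p = 0.014).

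Among called members with a mean of at least 10 counts in both groups, the largest rise was that of PROTODERMAL FACTOR 2 (BraA09g025450.3C, chromosome A09, 17142528 to 17146081, 10 exons), which maintains epidermal identity together with MERISTEM L1 in Arabidopsis. The annotated transcript had 1929, 2173 and 2190 counts in Ver libraries, against 38, 35 and 26 in Nor libraries. The log2 fold change was 5.96 (SE 0.23, edgeR adjusted p = 6.5e-05). The assembled transcript of the same gene moved in the opposite direction. This transcript (MSTRG.25603.1, 17140386 to 17147206, 12 exons) had 866, 800 and 776 counts in Ver libraries, against 3467, 2822 and 3757 in Nor libraries, a log2 fold change of -2.05 (SE 0.09, edgeR adjusted p = 9.3e-05).

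The annotated transcript held 69.0%, 73.1% and 73.8% of the counts of the gene in Ver libraries, against 1.08%, 1.23% and 0.687% in Nor libraries. The gene sum was 2898 ± 70.8 in Ver and 3388 ± 176 in Nor (SD, n = 3 each), which is a log2 fold change of -0.21 (SE 0.05, edgeR adjusted p = 0.0036), which is in the other direction from the annotated transcript and under the fold threshold. Of 63 members with several transcripts and at least 100 counts of the gene in each library, 9 had shares that did not overlap between Ver and Nor, which is 14.3%, against 17.2% of all such mRNAs. PROTODERMAL FACTOR 2 was the only 1 of these 63 in which the groups were also more than 50 percentage points apart, which was seen in 0.506% of all such mRNAs. StringTie divides reads among overlapping transcripts by estimate, and the assembled transcript reaches beyond the annotated one at both ends. Which exons carried the reads was not analysed here.

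**Figure D3:**
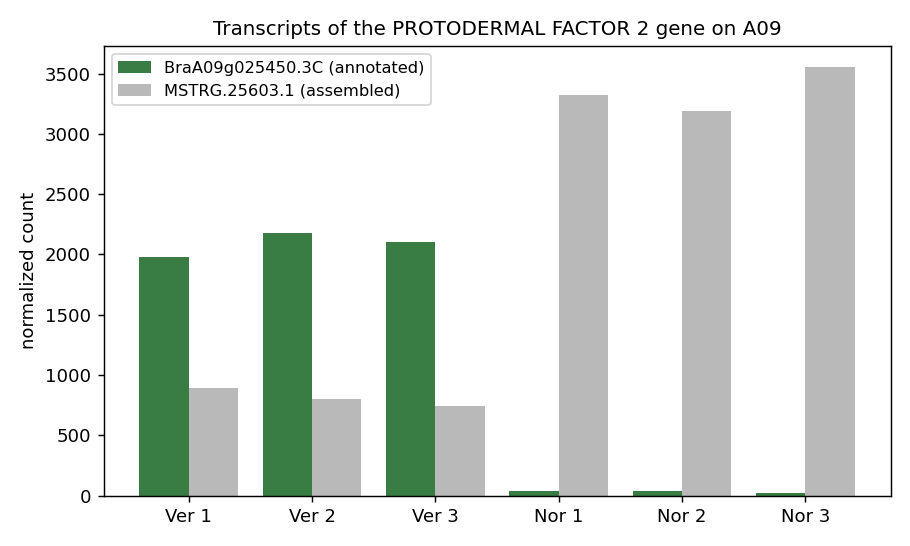
Normalized counts of both transcripts of the PROTODERMAL FACTOR 2 gene in each library, Ver on the left and Nor on the right. Green bars are the annotated transcript, which is close to 0 in the Nor libraries, and grey bars the assembled transcript, which is above 3000 in each Nor library and between 745 and 889 in the Ver libraries.

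The second PROTODERMAL FACTOR 2 gene (BraA03g028330.3C) was read almost wholly from assembled transcripts. Its annotated transcript had at most 13 counts in any library and was not tested, whereas the gene sums were 3910, 3627 and 3567 in Ver libraries and 5370, 5362 and 5391 in Nor libraries. The gene sum was lower in Ver with a log2 fold change of -0.53 (SE 0.04, edgeR adjusted p = 4.87e-06), inside the fold threshold. MERISTEM L1 (BraA03g049720.3C), the most abundant annotated HD-ZIP IV transcript, had 7.70, 8.36 and 8.20 FPKM in Ver libraries, against 9.97, 9.27 and 9.86 FPKM in Nor libraries, a log2 fold change of -0.27 (SE 0.06, edgeR adjusted p = 0.021). The other copy of MERISTEM L1 (BraA08g014720.3C) had 931, 664 and 67 counts in Ver libraries and 477, 874 and 610 in Nor libraries, with overlap between the groups (edgeR adjusted p = 0.88), while its gene sum was higher in Ver by a log2 fold change of 0.45 (edgeR adjusted p = 0.0043). The gene sums of these epidermal factors thus did not share a direction.

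KNOX genes keep cells of the shoot meristem undifferentiated (class I) or act in differentiating tissue (class II) in Arabidopsis. Of 9 members, 7 were tested and 2 were upregulated, and the median log2 fold change was 0.43. SHOOT MERISTEMLESS (BraA09g015930.3C, chromosome A09, 9645873 to 9648754), which is needed to form and keep the shoot apical meristem, had normalized counts of 356, 387 and 424 in Ver libraries, against 189, 198 and 180 in Nor libraries. It averaged 389 ± 34.1 in Ver and 189 ± 9.02 in Nor (SD, n = 3 each), which is a log2 fold change of 1.04 (SE 0.13, edgeR adjusted p = 0.00408). Without Ver 3 the log2 fold change was 0.98, under the fold threshold, with an adjusted p of 0.019.

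The class II gene KNAT4 (BraA02g003740.3C) had normalized counts of 249, 242 and 205 in Ver libraries, against 80.6, 80.2 and 96.4 in Nor libraries, a log2 fold change of 1.43 (SE 0.18, edgeR adjusted p = 0.00399). The most abundant KNOX member, KNAT1 (BraA03g026450.3C), known as BREVIPEDICELLUS in Arabidopsis, had 12.86, 14.4 and 13.96 FPKM in Ver libraries, against 9.43, 10.9 and 10.3 FPKM in Nor libraries. Its log2 fold change was 0.43 (SE 0.08, edgeR adjusted p = 0.013). A KNAT6 copy (BraA09g039740.3C) also passed the adjusted p at a log2 fold change of 0.57, and KNAT2 (BraA02g019840.3C) did so at -0.59. The 2 mRNAs of AS1, which represses KNOX genes in leaves, were not called by edgeR or DESeq2, and 1 of them (BraA05g007920.3C) had 6.95 FPKM in Ver and 11.4 FPKM in Nor on average (log2 fold change -0.72, edgeR adjusted p = 0.0020).

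BELL proteins pair with KNOX proteins. The 4 members included 1 that was upregulated and 1 that was downregulated. The BEL1 homolog (BraA04g013970.3C), which forms the ovule integument in Arabidopsis, had normalized counts of 965, 1011 and 871 in Ver libraries, against 297, 531 and 460 in Nor libraries. It averaged 949 ± 71.6 in Ver and 430 ± 120 in Nor (SD, n = 3 each), which is a log2 fold change of 1.14 (SE 0.23, edgeR adjusted p = 0.019). Its call was lost without Ver 1, Ver 2, Ver 3 or Nor 3, with adjusted p between 0.052 and 0.066, and without Nor 1, where the log2 fold change was 0.94. The fit on gene sums called it at 1.01.

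ATH1 (BraA01g005000.3C) acts on growth of the stem and on flowering time in Arabidopsis. Its normalized counts were 116, 152 and 118 in Ver libraries, against 292, 295 and 243 in Nor libraries, a log2 fold change of -1.10 (SE 0.19, edgeR adjusted p = 0.011). A second ATH1 copy (BraA01g005040.3C) lies 6235 bp from it. This neighbour had 47.2, 62.1 and 49.0 in Ver libraries, against 112, 79.1 and 100.2 in Nor libraries, and its log2 fold change of -0.88 missed the adjusted p (0.055). Both copies of the pair were lower in each Ver library than in any Nor library. Among the 18 mRNAs described as BEL1-like homeodomain proteins, which were not members by their wording, 16 were tested and 1 was called, as higher. Over all tested mRNAs 6.75% were higher. The called mRNA was BEL1 homeodomain protein 9 (BraA03g000480.3C), with 129, 81 and 122 counts in Ver libraries, against 34, 52 and 41 in Nor libraries. Further mRNAs of this name also stood higher without overlap. BraA02g000400.3C had a log2 fold change of 0.94 (edgeR adjusted p = 0.0049), and BraA10g033530.3C had 2.02 (edgeR adjusted p = 0.053). The gene sum of BraA10g033530.3C was called at 1.73 (edgeR adjusted p = 2.1e-06). On gene sums, 2 of the list were called higher and 1 lower.

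WUSCHEL-related homeobox (WOX) genes organise stem cell niches and lateral organ margins in Arabidopsis. They were weakly expressed in these seeds, with 13 of 16 members under 1 FPKM in all 6 libraries and 7 tested. WOX1 (BraA03g038230.3C), a leaf margin gene named after its values were seen, was the only 1 called, and it was downregulated with 6, 0 and 11 counts in Ver libraries, against 209, 135 and 191 in Nor libraries. One sequenced fragment adds 3.76 counts in these data, so the Ver counts stand for about 2, 0 and 3 fragments, against 56, 36 and 51 fragments in Nor libraries. The ratio of Nor over Ver was 28.9, with an exact 95% counting interval of 12.1 to 90.5. The fitted log2 fold change was -4.96 (edgeR adjusted p = 0.027), and the call was lost without any 1 library other than Ver 2, with adjusted p between 0.057 and 0.097. WOX13 (BraA01g002900.3C), the most abundant WOX member, had 1.12, 1.43 and 1.28 FPKM in Ver libraries and 1.80, 1.63 and 1.59 FPKM in Nor libraries (edgeR adjusted p = 0.18). Of 28 mRNAs of CLAVATA3/ESR (CLE)-related peptides, a family of which some members act with WOX proteins in Arabidopsis, 20 were tested and 1 was called, as lower.

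The remaining 7 homeobox members, of which 6 were tested, included ATHB-X (BraA07g035610.3C). It had normalized counts of 70.8, 45.1 and 32.6 in Ver libraries, against 19.2, 16.9 and 15.1 in Nor libraries, a log2 fold change of 1.53 (SE 0.38, edgeR adjusted p = 0.036). The call was lost without Ver 1, Ver 2 or any 1 Nor library, with adjusted p between 0.087 and 0.12. HD1 (BraA09g012790.3C), the most abundant of the group, had 1.64, 1.20 and 1.36 FPKM in Ver libraries and 1.79, 1.87 and 1.73 FPKM in Nor libraries and was not called.

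TGA factors held the most called members of any subfamily in 1 direction. Of 21 members, 18 were tested, 5 were upregulated (27.8%, against 6.75% of all mRNAs) and none was downregulated, and the median log2 fold change was 0.47. DESeq2 called 6 higher and none lower, and at an unadjusted p under 0.05 in edgeR 7 were higher and 1 lower. TGA7 (BraA07g041080.3C, chromosome A07, 27764641 to 27766515), which pairs with NPR proteins in Arabidopsis, was the most abundant, with normalized counts of 1260, 1352 and 1394 in Ver libraries, against 586, 750 and 630 in Nor libraries. The log2 fold change was 1.03 (SE 0.12, edgeR adjusted p = 0.00263). It was 0.90 on the gene sum, of which this transcript held 57.1%, and fell under the fold threshold without Ver 3, Nor 1 (0.95) or Nor 3.

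A TGA1 copy (BraA02g045070.3C) had normalized counts of 286, 377 and 371 in Ver libraries, against 111, 188 and 166 in Nor libraries, a log2 fold change of 1.15 (SE 0.26, edgeR adjusted p = 0.025). Its call was lost without Ver 2, Ver 3 or Nor 3, with adjusted p between 0.069 and 0.080, and without Nor 1, where the log2 fold change was 0.96. Of the other 4 TGA1 copies, none was called. TGA1 acts with TGA4 in defence and nitrate responses in Arabidopsis.

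The other 3 called TGA members were close to absent from Nor libraries. They fell outside the rule for named genes because their Nor counts were too low, and they were named after their values were seen. TGA2.3 on chromosome A09 (BraA09g021500.3C, 14023883 to 14025536) had 581, 577 and 662 counts in Ver libraries, against 8, 4 and 0 in Nor libraries. TGA2.3 on chromosome A06 (BraA06g042200.3C, 27740539 to 27741682) had 337, 428 and 322 counts in Ver libraries, against 0, 0 and 7 in Nor libraries. TGAL3 (BraA01g010190.3C, chromosome A01, 5229702 to 5230699) had 139, 107 and 123 counts in Ver libraries, against 4, 0 and 0 in Nor libraries. In fragments, Ver and Nor held 484 and 3 for the copy on A09, 290 and 2 for the copy on A06, and 98 and 1 for TGAL3.

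The ratios of Ver over Nor were 159 (exact 95% counting interval 54.2 to 776) for TGA2.3 on A09, 143 (39.3 to 1190) for TGA2.3 on A06 and 96.8 (17 to 3860) for TGAL3. These intervals cover counting error only, and their width shows that the size of the change rests on 1 to 3 Nor fragments. The edgeR adjusted p was 0.00688, 0.016 and 0.015 in the same order. For TGA2.3 on A06 it was 0.052 without Ver 2. All 3 lost the call in an edgeR fit with a replicate block, where the adjusted p was 0.052, 0.073 and 0.062. In FPKM, the means in Ver were 5.47, 3.27 and 1.30, and all Nor means were under 0.04. The 3 genes also share a gene structure that the choice of members did not use. Each has 2 exons, against a median of 7 over the 21 TGA members. Their TGA names rest on the descriptions alone, and whether they encode bZIP proteins was not examined.

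**Figure D4:**
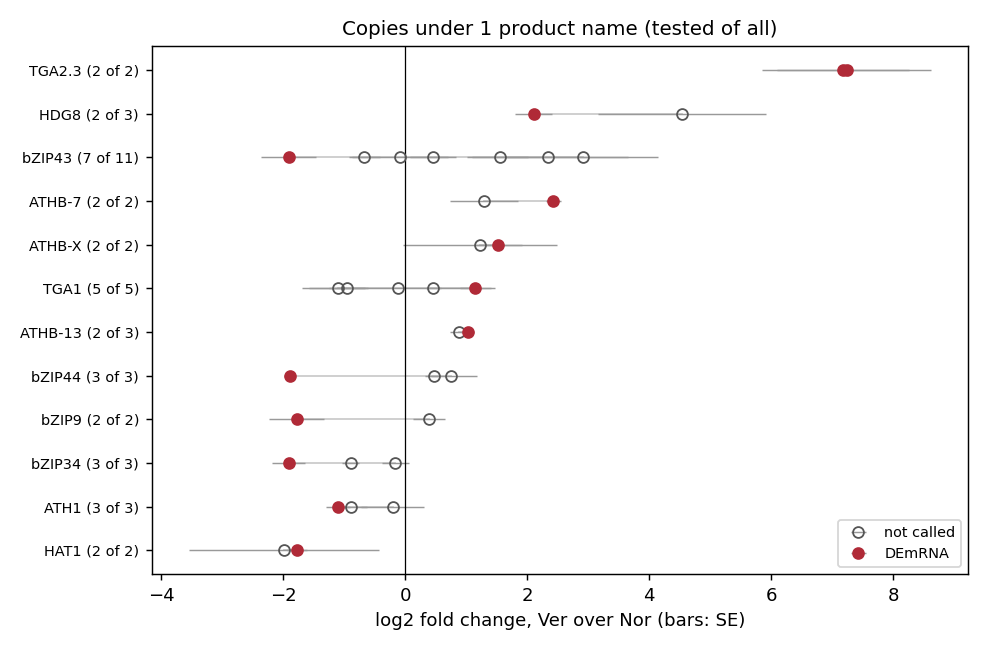
Log2 fold change (Ver over Nor) with its SE for tested members that share a product name, for the 12 names with at least 2 tested copies and a called one. Filled red points are called and open points are not. The 2 copies of TGA2.3 lie together near 7, and bZIP44 has 1 called copy near -1.9 with its other copies above 0.

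Some NPR proteins are salicylic acid receptors that bind TGA factors in Arabidopsis. The list counted here was chosen by name, takes in NPR5 and NPR6 as well, and was not divided by function. Of the 10 mRNAs in it, 9 were tested and none was called by edgeR, 4 had an unadjusted p under 0.05, and DESeq2 called 1 as higher. At an edgeR adjusted p of at most 0.05 and any fold change, 1 NPR mRNA was higher and 2 were lower. The 4 GBF members were all tested and none was called by edgeR or DESeq2, with 1 at an unadjusted p under 0.05. GBF1 (BraA01g002090.3C) had 8.48, 8.51 and 10.1 FPKM in Ver libraries and 8.82, 9.27 and 8.71 FPKM in Nor libraries. The groups overlapped, with a log2 fold change of 0.01 (SE 0.09, edgeR adjusted p = 0.94) that turned negative without Ver 3 or without Nor 3.

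The other bZIP mRNAs numbered 49, of which 40 were tested. The 4 that edgeR called were all downregulated (10%, against 7.7% of all tested mRNAs). None was upregulated, against 6.75% of all tested mRNAs. DESeq2 called 3 higher and 4 lower, and the median log2 fold change of the 40 was -0.09. At any fold change, 3 were higher and 8 lower at an adjusted p of at most 0.05. bZIP44 (BraA02g022740.3C, chromosome A02, 13302287 to 13302784), a group S bZIP that acts in seed germination in Arabidopsis, had normalized counts of 320, 317 and 281 in Ver libraries, against 1109, 1150 and 1143 in Nor libraries. It averaged 306 ± 21.6 in Ver and 1134 ± 21.9 in Nor (SD, n = 3 each) and was 3.70-fold lower in Ver, a log2 fold change of -1.89 (SE 0.09, edgeR adjusted p = 0.000142).

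A second bZIP44 copy (BraA07g027780.3C) had 1975, 2152 and 1978 in Ver libraries, against 1468, 1414 and 1495 in Nor libraries, a log2 fold change of 0.48 (SE 0.06, edgeR adjusted p = 0.0035) inside the fold threshold. The ratio of counts of the copy on A02 over the copy on A07 was 0.162, 0.147 and 0.142 in Ver libraries, against 0.755, 0.813 and 0.764 in Nor libraries. This pair was described because its fold changes had opposite signs, so the ratios are given as a description, with no test. Both copies were expressed in every library.

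bZIP34 (BraA05g002870.3C), needed for pollen development in Arabidopsis, had normalized counts of 130, 72.2 and 84.5 in Ver libraries, against 359, 328 and 390 in Nor libraries (log2 fold change -1.91, SE 0.27, edgeR adjusted p = 0.00579). bZIP43 (BraA09g060030.3C) had 14.4, 41.1 and 30.7 in Ver libraries, against 134, 97.1 and 92.6 in Nor libraries (log2 fold change -1.91, SE 0.45, edgeR adjusted p = 0.031). bZIP9 (BraA06g032120.3C), a group C bZIP, had 34.9, 37.1 and 13.4 in Ver libraries, against 96.9, 113 and 84.1 in Nor libraries (log2 fold change -1.78, SE 0.45, edgeR adjusted p = 0.038). The calls of bZIP43 and bZIP9 were weaker than that of bZIP34. That of bZIP43 was lost without Ver 3 or any 1 Nor library, with adjusted p between 0.071 and 0.094, and that of bZIP9 without Ver 1, Ver 2 or any 1 Nor library, with adjusted p between 0.071 and 0.11. bZIP43 was also the name with most copies, 11, of which 7 were tested and 1 was called. The log2 fold changes of these 7 ran from -1.91, that of the called copy, to 2.91.

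The most abundant bZIP mRNA was bZIP2 (BraA09g011250.3C), a group S bZIP of the energy starvation response. It had 103.8, 98.7 and 102.8 FPKM in Ver libraries and 105.5, 101.7 and 102.9 FPKM in Nor libraries. The groups overlapped, with a log2 fold change of -0.03 (SE 0.03, edgeR adjusted p = 0.67). bZIP60 (BraA08g007210.3C), which drives the unfolded protein response of the endoplasmic reticulum in Arabidopsis, had 78.6, 68.5 and 73.3 FPKM in Ver libraries, against 43.9, 44.8 and 42.7 FPKM in Nor libraries. It was higher in every Ver library with a log2 fold change of 0.74 (SE 0.06, edgeR adjusted p = 0.000688), under the fold threshold.

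bZIP25 (BraA03g020520.3C) and bZIP53 (BraA09g051810.3C) activate seed storage genes in Arabidopsis, together with bZIP10. bZIP25 had 7.56 FPKM in Ver and 4.24 FPKM in Nor on average, a log2 fold change of 0.83 (edgeR adjusted p = 0.0037). The annotated transcript of bZIP53 had 39.3, 42.8 and 25.8 FPKM in Ver libraries, against 51.2, 46.6 and 49.3 FPKM in Nor libraries. It did not pass the test (log2 fold change -0.45, edgeR adjusted p = 0.17). The gene sum of bZIP53 was 3361 ± 40.1 in Ver and 4036 ± 179 in Nor (SD, n = 3 each). This sum was lower in Ver by a log2 fold change of -0.25 (edgeR adjusted p = 0.000578), inside the fold threshold. bZIP10 (BraA09g001560.3C) had 9.17 FPKM in Ver and 7.95 FPKM in Nor (edgeR adjusted p = 0.33). The summed level of seed reserve mRNAs given above was higher in Ver, and its relation to these 3 factors was not tested.

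Genes known as targets of bZIP factors in Arabidopsis were counted from lists of product names. Over all tested mRNAs, 6.75% were upregulated and 7.7% downregulated, and no list was tested as a set. Asparagine synthetase and proline dehydrogenase, targets of group S bZIPs, gave 8 mRNAs, all tested, with 1 upregulated and 1 downregulated. The asparagine synthetase BraA06g023920.3C had 1131, 1107 and 1324 counts in Ver libraries, against 217, 186 and 163 in Nor libraries (log2 fold change 2.63, edgeR adjusted p = 0.000315). The proline dehydrogenase BraA06g036100.3C had 880, 1002 and 1079 counts in Ver libraries, against 3004, 2308 and 2928 in Nor libraries (log2 fold change -1.49, edgeR adjusted p = 0.000173). The other 6 mRNAs were not called, among them the more abundant asparagine synthetases BraA03g004190.3C (log2 fold change -0.0014) and BraA06g028460.3C (-0.12). Another, BraA06g039190.3C, is named only as an asparagine synthetase domain-containing protein. Proline dehydrogenases among the 6 included BraA04g011230.3C (-0.72, edgeR adjusted p = 0.014) and BraA09g003980.3C (2.83, edgeR adjusted p = 0.26). The gene sum of proline dehydrogenase BraA02g039240.3C was called lower (-1.77, edgeR adjusted p = 6.0e-10). Its annotated transcript held 1.99% of that gene. On gene sums, 1 mRNA of the list was called higher and 2 lower. The 33 mRNAs named as calreticulin, calnexin or protein disulfide isomerase include targets of bZIP60 and bZIP28 in the endoplasmic reticulum, and also chloroplast proteins such as LQY1. Of these 33, 31 were tested, 1 was upregulated and 1 was downregulated, and the median log2 fold change was -0.07. The upregulated one (BraA02g023010.3C) was a chloroplastic LQY1 mRNA.

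Zinc transporters, of which some are targets of bZIP19 and bZIP23, gave 20 mRNAs with 15 tested, 3 upregulated and 3 downregulated. The shares over all tested mRNAs were 6.75% upregulated and 7.7% downregulated. Zinc transporter 3 (BraA04g023190.3C) fell to 303, 345 and 357 counts in Ver libraries, against 2991, 2674 and 3160 in Nor libraries (log2 fold change -3.15, SE 0.07, edgeR adjusted p = 1.3e-05). The annotated transcript of zinc transporter 11 (BraA08g000240.3C) had a log2 fold change of 5.97. It held 21.9% of the counts of its assembled gene in Ver and 0.349% in Nor. That assembled gene holds 3 transcripts, of which 2 are annotated mRNAs. Its gene sum, with a log2 fold change of 0.03, is therefore not that of this mRNA alone. The 4 SnRK1 kinase mRNAs (3 tested), which act upstream of group S and C bZIPs, were not called by edgeR or DESeq2, and 2 had an unadjusted p under 0.05. The ABSCISIC ACID-INSENSITIVE 5 and HY5 mRNAs, bZIP genes left out of the members, numbered 16 with 11 tested, 2 upregulated and 1 downregulated. ABSCISIC ACID-INSENSITIVE 5 itself (BraA05g009140.3C), which holds back germination, had 1293, 1302 and 1415 counts in Ver libraries, against 471, 291 and 478 in Nor libraries (log2 fold change 1.69, edgeR adjusted p = 0.00109). A second copy (BraA04g025810.3C) had 386, 298 and 248 counts in Ver libraries, against 0, 0 and 60 in Nor libraries. Its transcript was not called (edgeR adjusted p = 0.20), but its gene sum was called higher (log2 fold change 2.37, edgeR adjusted p = 6.6e-06). On gene sums, 4 mRNAs of this list were called higher and 1 lower.

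Zinc-finger homeodomain proteins carry a homeodomain without the words that define the members. The list of 26 mRNAs also took in mini zinc finger proteins, whose names state no homeodomain. Of the 26, 22 were tested, 5 were downregulated and none was upregulated by both edgeR and DESeq2. The median log2 fold change of the list was -0.29. The 5 were copies of zinc-finger homeodomain proteins 1 and 5. The largest fall was that of a copy of protein 1 (BraA02g045190.3C), with 320, 366 and 324 counts in Ver libraries, against 1477, 1141 and 1387 in Nor libraries (log2 fold change -2.00, SE 0.10, edgeR adjusted p = 0.000157). OFP repressors, which bind KNOX and BELL proteins in Arabidopsis, numbered 28 with 24 tested, 6 downregulated and 1 upregulated, although the median was 0.22. For both lists the edgeR shares over all tested mRNAs were 7.7% downregulated and 6.75% upregulated, and neither list was tested as a set. The upregulated OFP12 copy (BraA10g004230.3C) had 23, 23 and 26 counts in Ver libraries and 0 in each Nor library. OFP15 (BraA04g025670.3C) had 13, 8 and 23 counts in Ver libraries, against 98, 101 and 108 in Nor libraries (log2 fold change -2.82, SE 0.43, edgeR adjusted p = 0.0073).

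Chinese cabbage keeps several copies of many Arabidopsis genes. The members shared 59 product names among 150 mRNAs, and 45 names had at least 2 tested copies. In 12 of the 45 a copy was called, and in 1 of them, TGA2.3, more than 1 copy was called. No name had copies called in opposite directions. A copy that missed the threshold is not shown to differ from a called one. Neighbouring members of the same name were the ATH1 pair, an HDG5 pair 110 bp apart (log2 fold changes -1.12 and -0.88, not called), and pairs of HD1, ATHB-51 and TGA2 of which only 1 copy each was tested.

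Summing counts over all transcripts of a gene changed which members were called. On gene sums, 34 of 164 tested members were called (19 higher and 15 lower, 20.7%), against 17.7% of all genes that hold an mRNA (8.41% higher and 9.31% lower). Of the 23 called by transcript, 21 were called on gene sums in the same direction, and the exceptions were PROTODERMAL FACTOR 2 and TGA7. Of the 13 called on gene sums only, 8 have a single transcript, and 5 have several. In 41 members the annotated transcript held less than 50% of the counts of its gene, and in 20 less than 10%.

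Among the 5, HAT5 on chromosome A01 (BraA01g044820.3C) had gene sums of 2309, 2233 and 2205 in Ver libraries, against 5686, 5608 and 5895 in Nor libraries. This was a log2 fold change of -1.34 (SE 0.04, edgeR adjusted p = 5.90e-09), although its annotated transcript held 15.2% of the gene and was not called (edgeR adjusted p = 0.45). HDG12 (BraA08g029000.3C) had gene sums of 480, 481 and 545 in Ver libraries, against 1065, 1179 and 1204 in Nor libraries, with a log2 fold change of -1.18 (SE 0.09, edgeR adjusted p = 4.92e-06), and its annotated transcript had 7 counts in Nor 1 and none elsewhere. HDG5 (BraA09g022380.3C) had gene sums of 103, 135 and 75.8 in Ver libraries, against 382, 314 and 297 in Nor libraries, a log2 fold change of -1.65 (SE 0.22, edgeR adjusted p = 0.000164). These 3 genes, with the second HAT1 copy, were lower in Ver by gene sum, and the second ATHB-13 copy was higher.

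**Figure D5:**
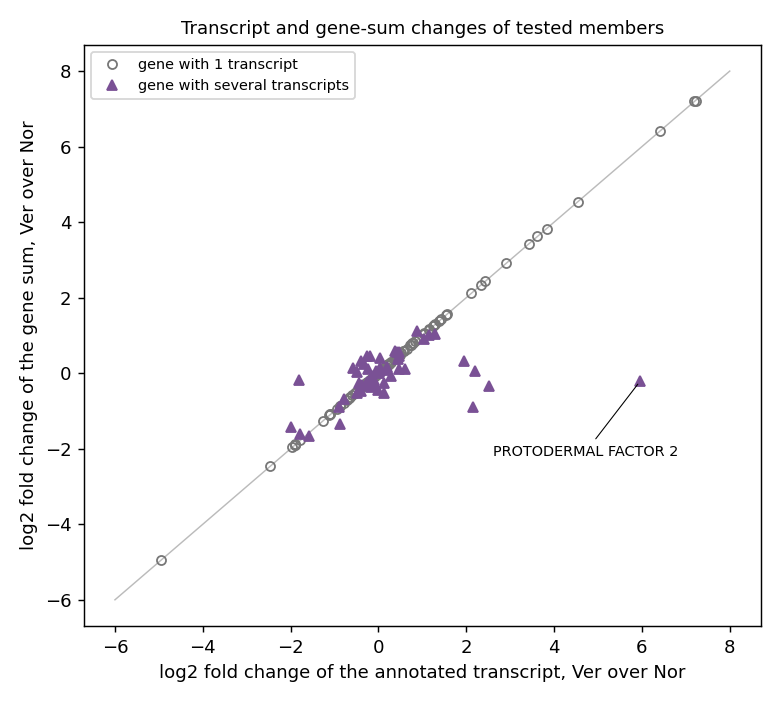
Log2 fold change (Ver over Nor) of the annotated transcript on the x axis and of the gene sum on the y axis, for the tested members. Open circles are genes with 1 transcript, purple triangles genes with several, and the grey line marks equal values. PROTODERMAL FACTOR 2 lies at 5.96 by transcript and -0.21 by gene sum.

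Other readouts of the same genes were sparse. Of 976 circRNAs, 3 came from ATHB-5 and MERISTEM L1, with 5 junction reads in all Ver libraries together and 0 in Nor libraries, which is too few for a comparison. Assembled antisense transcripts lay at bZIP28, bZIP16 and HAT7 (BraA10g024200.3C). Of the 6 at HAT7, 2 were called lower in Ver, at log2 fold changes of -1.25 and -1.73 (edgeR adjusted p = 0.0083 and 0.0099), while HAT7 itself had 0.09 and was not called. Reads of that antisense gene were divided among its 6 transcripts very differently between libraries, with 60 counts of the fifth transcript in Ver 1 and 12883 in Ver 2, so these values are uncertain.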

How the data were processed

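Strand-specific libraries depleted of ribosomal RNA were sequenced from 3 Ver and 3 Nor samples. Per the paper's methods, the authors cut adapters with Cutadapt. Mapping to the B. rapa v3.0 genome used Bowtie2 and TopHat2, and StringTie and Ballgown served for assembly and quantification. The submitters' processing notes list HISAT2 as well. For each transcript, the authors deposited 1 estimated count and 1 FPKM value in each library. The estimated counts, as deposited, are whole numbers, and 1 fragment was found to add 3.76 counts, so counting error is larger than the counts imply. The FPKM values, as deposited by the authors, are scaled for length and depth, and 0 is written as 0.0001. For circRNAs the authors deposited junction read counts and SRPBM, a normalized signal that was not used.

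The deposited counts of all linear transcripts were filtered by filterByExpr, scaled by TMM and tested with the quasi-likelihood F test of edgeR 4.0.16 (R 4.3.3). P-values were adjusted by Benjamini-Hochberg over the 49351 fitted transcripts, and the common dispersion was 0.363. Standard errors are the absolute log2 fold change divided by the square root of F. Scripts were tested on simulated data. Gene sums add all transcripts of an assembled gene. Members and lists were chosen with earlier results of these data known. Named members are the 12 largest rises and 12 largest falls among called members with no overlap and a mean of at least 10 counts in the lower group, the most abundant member of each subfamily, copies called in opposite directions, and called members with at most 3 counts in each library of the lower group. Others were chosen after their values were seen. The labels number 3 samples per group. P-values measure the spread between these samples, which may be technical in part. Alternatives were DESeq2 1.42.0, limma 3.58.1 on log2(FPKM + 1) and log2(FPKM + 0.1), other scalings and filters, a robust fit, gene sums, other adjustments, a replicate block, each library left out and, chosen after seeing the data, counts rescaled to fragments. Python 3.11, pandas 2.3.3, NumPy 2.4.6 and matplotlib 3.10.9 were used for tables and figures.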

Additional observations from a re-analysis of the deposited data

How the results depend on the processing

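The 23 calls (14 higher and 9 lower in Ver) were all made under DESeq2 too, which called 36 members (25 higher, 23.5% against 18.9% of all mRNAs), with 23 homeobox members (16 higher) and 9 bZIP family members higher. Limma on log2(FPKM + 1), which shrinks changes of weakly expressed members by its construction, called 11 (5 higher), with 6 homeobox (2 higher) and 5 bZIP family members (3 higher and 2 lower). Without the adjustment of p, 23 members were higher, with 22 homeobox (15 higher) and 8 bZIP family members higher. On gene sums 15 members were lower, with 24 homeobox members called (11 lower). Among transcripts with a mean CPM of at least 1, 2 bZIP family members were lower. Leaving out 1 library gave 18 to 20 calls (10 to 14 higher and 6 to 9 lower), with 10 to 15 homeobox (6 to 11 higher and 4 to 5 lower) and 5 to 8 bZIP family members (3 to 5 higher and 2 to 4 lower). Among the bZIP families, 5 were called without Nor 1, 3 were higher without Ver 2, Ver 3 or Nor 1, and 2 were lower without any 1 Nor library.

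Whether same-numbered Ver and Nor libraries share a dish is not given in the sources used here. The deviations of same-numbered libraries correlated at 0.0006, 0.0029 and -0.0029. These values cannot settle it, because no pair with a known shared dish was available for comparison. With a replicate block, 14 members were called (4 lower), with 9 homeobox (2 lower) and 5 bZIP family members (3 higher and 2 lower). Of the 23 calls, 10 were lost there, among them those of both TGA2.3 copies, TGAL3 and WOX1. Directions turned for PROTODERMAL FACTOR 2 on gene sums (-0.21), and, near 0, for GBF1 without Ver 3 (-0.0744) or Nor 3 (-0.0052) and for bZIP2 without composition factors (0.0049) or without Ver 2 (0.0012). Leaving out 1 library gave -0.0744 to 0.0598 for GBF1 and -0.0401 to 0.0012 for bZIP2. Counts rescaled to fragments gave 25 calls, 22 of them among the 23. For limma, the CPM filter, the replicate block, left-out libraries and rescaled counts, the share of all mRNAs called was not computed. Those counts describe the members only. No scaling moved the median of all mRNAs by more than 0.1. The cause of these differences was not tested. Members with few fragments are limited by depth, and 3 libraries per group limit every test.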
